A study of Mus musculus with 6 samples.

Results

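Selenoproteins contain selenocysteine, an amino acid whose codon is UGA, a triplet that otherwise ends translation. A ribosome decodes UGA as selenocysteine only when the messenger RNA carries a SECIS stem-loop in its 3′ untranslated region, which recruits the binding protein SECISBP2, the elongation factor EEFSEC and a dedicated tRNA. Recoding competes with termination and is known as a slow step of elongation, and liver is the main source of selenoprotein P, which carries selenium in plasma. Disome profiling sequences the stretch of messenger RNA that 2 ribosomes stacked against each other shield from nuclease. The 10 mouse genes considered here, all known selenoprotein genes, were taken by their Ensembl identifiers from a list drawn up for this report: Gpx1, Gpx4, Selenop, Dio1, Txnrd1, Selenof, Selenok, Selenow, Msrb1 and Sephs2. Of these, 9 are among the 8941 genes in the tables, and Gpx1, the cytosolic glutathione peroxidase, is not listed and was not analysed here. All 9 passed the filter on low values, a mean RPKM of 1 or more, among 8355 genes tested.

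Livers were those of males of the inbred mouse strain C57BL/6JRj, aged 11 to 12 weeks. The animals had been entrained for 2 weeks to cycles of 12 h light and 12 h dark, and no genotype or treatment other than the time of day set them apart. They were collected 0, 2 and 12 h after the lights came on (zeitgeber times ZT0, ZT2 and ZT12). Each time point had 2 libraries, each from the pooled lysate of 2 mice. Lysates held cycloheximide, which halts elongating ribosomes, and RNase I digestion took 45 min with 650 U, per the labels' protocols. Values are RPKM, reads per kilobase of coding sequence scaled by library, so levels can be set against each other between genes as well as between libraries. Each table gives 1 value per gene, so where on a message the stacked ribosomes stood, at a UGA or elsewhere, was not measured. Transcript amounts were not analysed here either, and in whole liver fewer expressing cells and less RNA per cell cannot be told apart.

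Whole reads could be recovered from the steps of the RPKM values and totalled 6346387 to 12322651 per library. Library totals were highest at ZT12, and the number of genes listed at 0 ran from 4 to 250 per library, the highest in ZT2 replicate 2. Replicates were farthest apart at ZT2, where Pearson's r of log2(RPKM + 1) across the 8355 genes was 0.948, against 0.989 at ZT0 and 0.976 at ZT12. Genes are not independent, so these r values only describe the libraries. The files pair no identifiers with symbols, so the symbols of the 9 genes are those of the list, and neither hepatocyte markers nor genes of the selenocysteine machinery could be looked up.

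The 9 genes held 0.442% ± 0.109 (SD, n = 6) of all recovered reads, from 24405 to 73536 reads per library. The share was 0.339% and 0.359% in the ZT0 libraries, 0.434% and 0.379% in those of ZT2 and 0.524% and 0.618% in those of ZT12. Both ZT12 libraries thus lay above all the others. Selenop and Msrb1 together made up 71.1% ± 7.82 (SD, n = 6) of the selenoprotein reads, and their part was largest at ZT12, at 77.2% and 83.0%. Whether reads carried molecular identifiers is not stated, so the intervals below cover counting error only.

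All 9 genes lay above the median gene, whose mean level was 7.47 RPKM, and their means ran from 33.9 to 3311 RPKM. Mean levels exceeded 1000 RPKM for 3 of them, as for 126 of all 8941 genes, and lay between 100 and 1000 RPKM for another 3. From the highest mean level down, the order was Msrb1, Selenok, Selenop, Gpx4, Sephs2, Selenow, Selenof, Txnrd1 and Dio1. Neighbours in this order were not all resolved over the 6 libraries together. Msrb1 exceeded Selenok in 5 of 6 libraries, Selenok exceeded Selenop in 4, Sephs2 exceeded Selenow in 5 and Selenof exceeded Txnrd1 in 5. In each of these pairs the mean log2 difference was smaller than its SD over the 6 libraries. The steps from Selenop to Gpx4, from Gpx4 to Sephs2, from Selenow to Selenof and from Txnrd1 to Dio1 had the same direction in 6 of 6 libraries and exceeded that SD. The widest step was the 5.34-fold difference between the mean levels of Selenop and Gpx4. The SD over the 6 libraries pools the time points, so a change of order with time enters it. Selenok lay above Selenop in every ZT0 and ZT2 library. At ZT12 it lay below Selenop in both libraries, at 1667 against 2109 RPKM and 1618 against 2848 RPKM. For the other unresolved pairs the exception was ZT2 replicate 1.

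**Figure D1:**
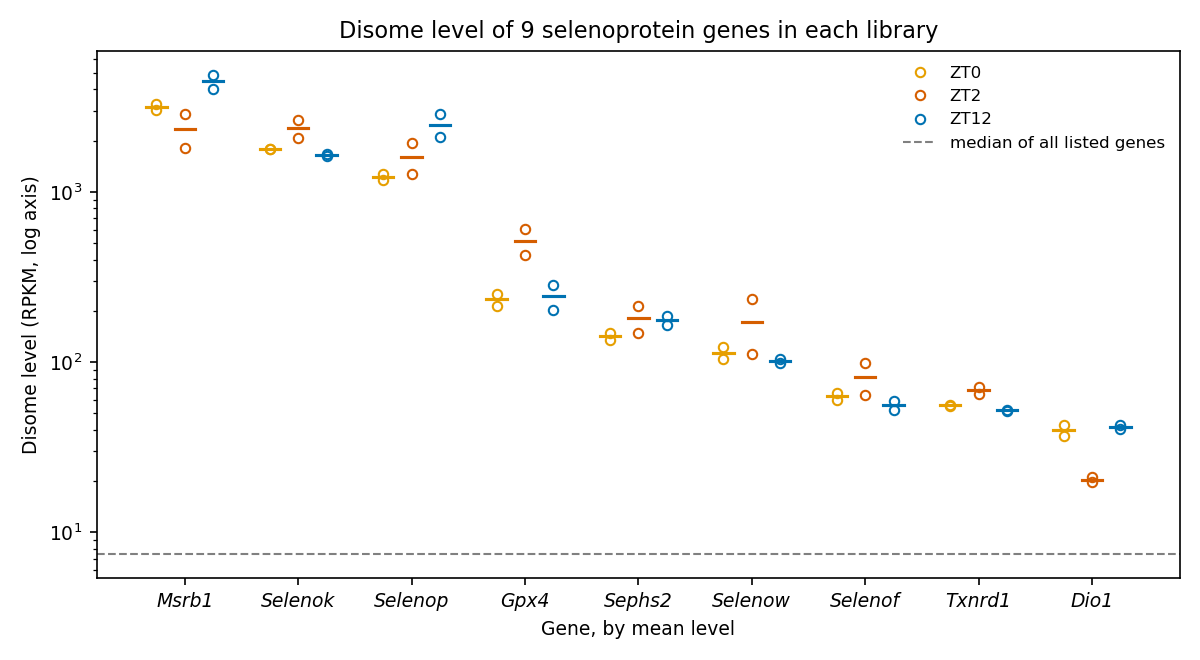
Disome level in RPKM on a log axis for the 9 selenoprotein genes, ordered by mean level. Circles are single libraries, short bars are the mean of the 2 libraries of a time point, and the dashed line is the median of all 8941 listed genes at 7.47 RPKM. Dio1 at ZT2 lies below its ZT0 and ZT12 libraries, and Gpx4 at ZT2 lies above its own.

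Short coding sequences carried higher disome RPKM in these tables, so each gene was also set against genes of similar coding length, from 0.8 times its own up to its own divided by 0.8. Across all 8941 genes Spearman's rho between mean RPKM and coding length was -0.466, and across the 9 genes it was -0.383, both given as descriptions. Compared with genes of similar length, all 9 were above the median, and 5 exceeded more than 90% of them. Selenop stood 176-fold above the median of 2122 such genes and exceeded 98.9% of them. Msrb1 exceeded 98.6% of 441 genes and Selenok 98.1% of 267 genes, followed by Gpx4 with 94.4% of 1387 and Sephs2 with 91.6% of 2311. Txnrd1, with the longest coding sequence of the 9 at 613 codons, exceeded 87.9% of 2096 genes. Selenow, Selenof and Dio1 were closer to the middle, exceeding 74.5%, 71.9% and 69.2% of genes of similar length. Selenow and Selenok are close in length, with 88 and 94 codons, yet the mean level of Selenok was 1926 RPKM ± 382 and that of Selenow 129.2 RPKM ± 51.9 (SD, n = 6 each).

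**Figure D2:**
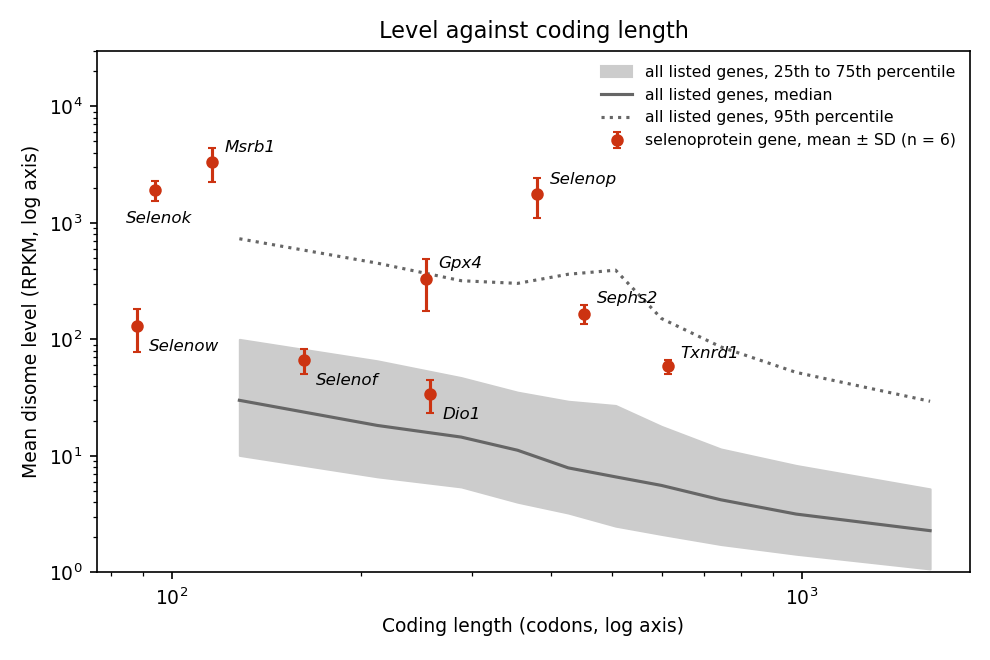
Mean disome level in RPKM against coding length in codons, both on log axes. Red points are the 9 selenoprotein genes with the SD over 6 libraries, and the band and lines give the quartiles, median and 95th percentile of all 8941 listed genes in 10 classes of coding length. Msrb1, Selenok and Selenop lie above the 95th percentile line or its continuation to shorter genes, and Dio1 and Selenof lie inside the band.

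Selenop and Sephs2 serve selenium supply. Selenop (ENSMUSG00000064373) encodes selenoprotein P, the secreted carrier that liver releases to deliver selenium to other organs and, unlike the other genes here, holds many selenocysteines in one chain. Its disome level was 1169.6 and 1268 RPKM in the ZT0 pair of libraries, 1924 and 1272 RPKM in the ZT2 pair and 2109 and 2848 RPKM in the ZT12 pair. Both ZT12 libraries were above every other library, while ZT2 replicate 2 lay level with ZT0. The gene ranked 69th and 50th of 8941 at ZT12, against 123rd and 116th at ZT0. Its log2 change was 1.01 ± 0.24 (SE) for ZT12 against ZT0, a 2.03-fold ratio of means, and this did not pass, with a limma adjusted p of 0.13. It passed in 4 of 16 alternative fits, at 0.022 for the adjusted p of limma after voom on the recovered reads and at 0.038 to 0.039 without either ZT2 library or on the ZT0 and ZT12 libraries alone. The coding sequence used has 380 codons, and the gene overlaps Ccdc152 in RefSeq. Whether reads were counted by strand is not given in the sources used here.

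Sephs2 (ENSMUSG00000049091) encodes selenophosphate synthetase 2, which makes the selenium donor for selenocysteine synthesis and is itself a selenoprotein. It had 148.4 and 134.3 RPKM in the ZT0 pair of libraries, 147.7 and 214.7 RPKM in the ZT2 pair and 186.4 and 165.8 RPKM in the ZT12 pair. The ZT2 libraries overlapped those of both other time points, and the ZT12 libraries lay above those of ZT0. Among its 3 comparisons the smallest unadjusted p was for ZT2 against ZT0, whose log2 change of 0.33 ± 0.21 (SE) had a limma adjusted p of 0.52. This value turned on the ZT2 pair, at 0.06 without ZT2 replicate 2 and 0.60 without ZT2 replicate 1.

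Gpx4, Txnrd1, Msrb1 and Selenow encode redox proteins. Gpx4 (ENSMUSG00000075706) encodes glutathione peroxidase 4, which reduces lipid hydroperoxides within membranes and guards cells against ferroptosis. It had 251.3 and 214.7 RPKM in the ZT0 pair of libraries, 606.1 and 423.3 RPKM in the ZT2 pair and 285.2 and 202.4 RPKM in the ZT12 pair. The ZT2 libraries were above all others and the ZT0 and ZT12 libraries overlapped. Its log2 change was 1.12 ± 0.24 (SE) for ZT2 against ZT0, with a limma adjusted p of 0.19, and -1.07 ± 0.24 (SE) for ZT12 against ZT2, with a limma adjusted p of 0.082. Both comparisons use the same ZT2 libraries. The second passed in 3 of 16 alternative fits, at a limma adjusted p of 0.017 with voom, 0.048 with the replicate number as a block and 0.037 without ZT2 replicate 2. RefSeq lists 2 Gpx4 pseudogenes, and how reads that fit several places were counted is not given in the sources used here.

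Msrb1 (ENSMUSG00000075705) encodes methionine sulfoxide reductase B1, which repairs oxidised methionine. It had the highest mean level of the 9, with 3011 and 3293 RPKM in the ZT0 pair of libraries, 1803 and 2867 RPKM in the ZT2 pair and 4026 and 4869.5 RPKM in the ZT12 pair. The time points did not overlap, with ZT2 lowest and ZT12 highest, and the gene ranked 33rd and 28th of 8941 at ZT12. Its log2 change was 0.96 ± 0.24 (SE) for ZT12 against ZT2, a 1.90-fold ratio of means, with a limma adjusted p of 0.10. It passed with voom, at a limma adjusted p of 0.024. Without ZT2 replicate 2 the log2 change was 1.30, which passed at a limma adjusted p of 0.026, and without ZT2 replicate 1 it was 0.63, which did not pass, at 0.10. The 2 genes outside the list whose log2 levels followed Msrb1 most closely were ENSMUSG00000066154 and ENSMUSG00000021687, with Pearson's r of 0.991 and 0.990 over the 6 libraries. They are the closest of all tested genes by construction.

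Txnrd1 (ENSMUSG00000020250) encodes cytosolic thioredoxin reductase, which uses NADPH to keep thioredoxin reduced. Its level varied least of the 9, with 55.3 and 56.3 RPKM in the ZT0 pair of libraries, 71.5 and 65.2 RPKM in the ZT2 pair and 51.9 and 52.1 RPKM in the ZT12 pair. Replicates differed by 1.02-fold at ZT0, 1.097-fold at ZT2 and 1.00-fold at ZT12, and the time points did not overlap, with ZT2 highest. The log2 change of -0.39 ± 0.17 (SE) for ZT12 against ZT2 had a limma adjusted p of 0.27. The gene overlaps Eid3 and a long noncoding gene in RefSeq.

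Selenow (ENSMUSG00000041571) encodes selenoprotein W, a small protein with a thioredoxin-like fold. It had 104.8 and 122.3 RPKM in the ZT0 pair of libraries, 233.8 and 111.0 RPKM in the ZT2 pair and 98.6 and 104.3 RPKM in the ZT12 pair. The high value came from ZT2 replicate 1 alone, with 381 reads, a level whose 95% Poisson interval was 210.9 to 258.5 RPKM. ZT2 replicate 2 had 226 reads and an interval of 97.0 to 126.5 RPKM, so the replicates differed by more than counting error. The log2 change for ZT12 against ZT2 was -0.66 ± 0.32 (SE), at a limma adjusted p of 0.32. Without ZT2 replicate 2 it was -1.20, with a limma adjusted p of 0.026, and without ZT2 replicate 1 it was -0.13.

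Selenok and Selenof encode proteins of the endoplasmic reticulum. Selenok (ENSMUSG00000042682) encodes selenoprotein K, a membrane protein that works with a palmitoyltransferase. It had 1785 and 1774 RPKM in the ZT0 pair of libraries, 2633 and 2082 RPKM in the ZT2 pair and 1667 and 1618 RPKM in the ZT12 pair. The time points did not overlap and ZT2 was highest. The log2 change of -0.51 ± 0.17 (SE) for ZT12 against ZT2 had a limma adjusted p of 0.18. RefSeq lists 8 Selenok pseudogenes, so its reads could have been split among copies.

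Selenof (ENSMUSG00000037072) encodes a partner of the glycoprotein glucosyltransferase UGGT in protein folding control. It had 60.2 and 65.9 RPKM in the ZT0 pair of libraries, 63.7 and 98.8 RPKM in the ZT2 pair and 58.9 and 52.5 RPKM in the ZT12 pair. The ZT2 and ZT0 libraries overlapped, and both ZT12 libraries were lowest. The log2 change for ZT12 against ZT2 was -0.50 ± 0.24 (SE), at a limma adjusted p of 0.30. Leaving out ZT2 replicate 2 gave -0.19, at a limma adjusted p of 0.57, and leaving out ZT2 replicate 1 gave -0.82, at 0.054.

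Dio1 (ENSMUSG00000034785) encodes type 1 iodothyronine deiodinase, the liver, kidney and thyroid enzyme that converts thyroxine into the active hormone triiodothyronine. It was the lowest of the 9 in mean level and the only one called in any comparison of the main limma fit, and the call was narrow. Its disome level was 37.0 and 42.4 RPKM in the ZT0 pair of libraries, 21.0 and 19.7 RPKM in the ZT2 pair and 42.9 and 40.4 RPKM in the ZT12 pair. Both ZT2 libraries were below every other library, and the ZT0 and ZT12 libraries overlapped. The ZT2 values rested on 100 and 117 reads, with 95% Poisson intervals of 17.1 to 25.6 and 16.3 to 23.6 RPKM. The lowest bound at ZT12 was 36.5 RPKM, from 385 reads. It ranked 1940th and 1781st of 8941 in the ZT0 libraries, 2631st and 2718th in those of ZT2 and 1701st and 1741st in those of ZT12.

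Dio1 rose to 41.7 RPKM ± 1.72 at ZT12, against 20.3 RPKM ± 0.937 at ZT2 (SD, n = 2 each), a 2.05-fold ratio of means. This log2 change of 1.00 ± 0.19 (SE) had a limma adjusted p of 0.0496. The call held in 5 of 16 alternative fits and was lost in 11, with a limma adjusted p of 0.032 to 0.25 over all 16, while the log2 change stayed between 0.88 and 1.16. It was lost without either ZT0 library, at a limma adjusted p of 0.15 each, without ZT2 replicate 2, at 0.053, without ZT12 replicate 1, at 0.15, and without ZT12 replicate 2, at 0.25. On the ZT12 and ZT2 libraries alone it was 0.15, and with the replicate number as a block 0.087. For ZT2 against ZT0, which shares the ZT2 libraries, the log2 change of -0.93 ± 0.19 (SE) had a limma adjusted p of 0.19.

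Dio1 and Gpx4 ran opposite ways at ZT2, which could be read within each library, where no scaling between libraries enters. The Gpx4 to Dio1 ratio of RPKM was 6.79 and 5.06 in the ZT0 libraries, 28.8 and 21.5 in those of ZT2 and 6.65 and 5.01 in those of ZT12. Both ZT2 ratios were above all others, and those at ZT0 and ZT12 overlapped. This pair was chosen after its values were seen, so no test is given. The Selenop to Msrb1 ratio was 0.388 and 0.385 in the ZT0 libraries, 1.07 and 0.444 in those of ZT2 and 0.524 and 0.585 in those of ZT12. It set ZT2 replicate 1 apart from the other 5 libraries.

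**Figure D3:**
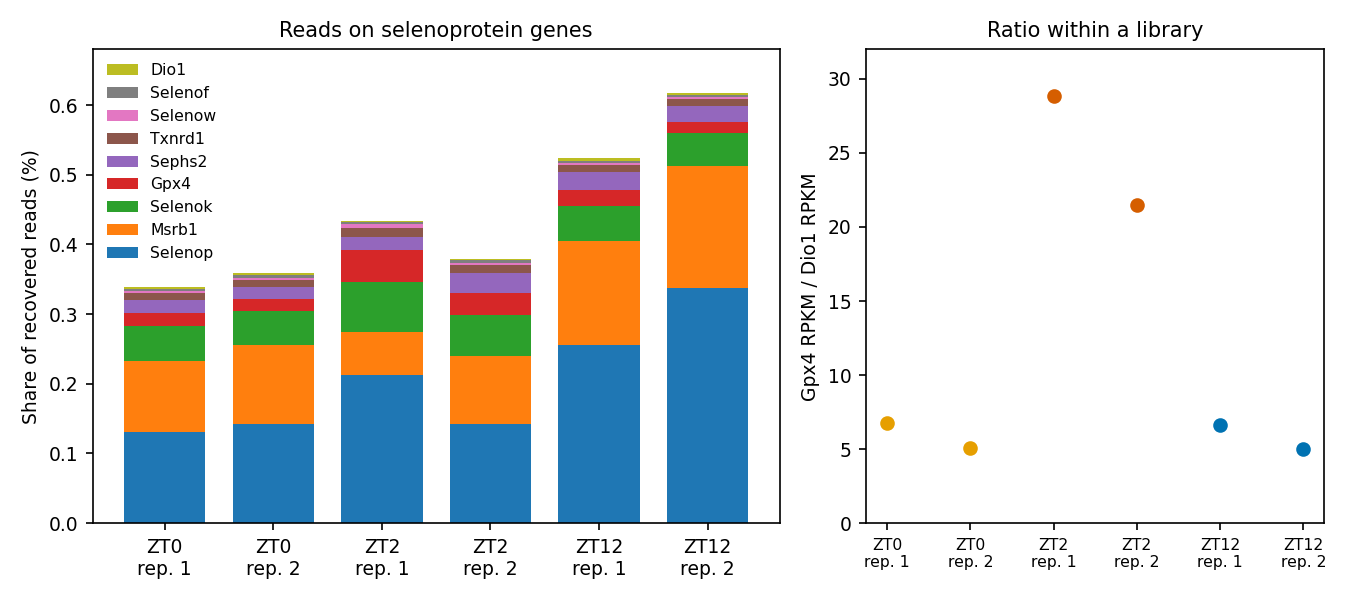
Left, the share of each library's recovered reads in percent that fell on each selenoprotein gene, stacked, for the 2 libraries of each time point; the total reaches 0.524% and 0.618% at ZT12. Right, the ratio of Gpx4 to Dio1 RPKM within each library, which is 28.8 and 21.5 at ZT2 and at most 6.79 elsewhere.

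The first comparison asked what differed between ZT2 and ZT0, the first 2 h of light. None of the 9 genes passed limma's test (0 of 9), where 0.0239% of the 8355 tested genes did. Voom on the recovered reads also called 0, beside 9 of the 8355. At an unadjusted p of 0.05 limma counted 2, Gpx4 higher and Dio1 lower, beside 13.7% of tested genes. The 2 libraries of each time point did not overlap for 6 of the 9, beside 46.4% of tested genes. Mean log2 levels were higher at ZT2 for 7 genes and lower for Dio1 and Msrb1. The median log2 change was 0.33 for the 9 genes and -0.04 for all tested genes, and that of the 9 was 0.22 without ZT2 replicate 1.

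The second comparison set ZT12, the start of the dark phase, against ZT0. Again limma called none of the 9 (0 of 9, beside 0.946% of tested genes), and voom called Selenop, beside 283 of the 8355. At an unadjusted p of 0.05 limma counted only Selenop, beside 14.5%. Libraries did not overlap for 7 of the 9, beside 54.4% of tested genes. Selenop, Msrb1 and Sephs2 were higher in both ZT12 libraries, and Selenok, Selenow, Selenof and Txnrd1 were lower in both. The median log2 change was 0.05 for the 9 genes and -0.01 for all tested genes. The sign for the 9 depended on single libraries, with a median of -0.03 without ZT0 replicate 1, -0.05 without ZT0 replicate 2 and -0.10 without ZT12 replicate 1.

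The third comparison set ZT12 against ZT2, 10 h apart. Limma called 1 of the 9, Dio1, beside 2.06% of tested genes, and at an unadjusted p of 0.05 it counted 5, beside 19.2%: Dio1, Msrb1 and Selenop higher, Gpx4 and Selenok lower. With voom on the recovered reads, 3 passed, namely Dio1, Gpx4 and Msrb1, beside 356 of the 8355 tested genes. Libraries did not overlap for 8 of the 9, beside 45.9%, and Sephs2 was the exception. The median log2 change was -0.39 for the 9 genes and 0.03 for all tested genes, and that of the 9 was -0.19 without ZT2 replicate 2. How many of the 9 limma called depended on which single library was left out, and so did the number called over all tested genes. Scaling every library to the same RPKM total moved the median of all genes from 0.03 to 0.17 here. For ZT2 against ZT0 it moved that median from -0.04 to -0.11. The median of the 9 genes moved as well, from -0.39 to -0.23 here and from 0.33 to 0.25 for ZT2 against ZT0. The comparisons share libraries, so their directions are not separate evidence.

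**Figure D4:**
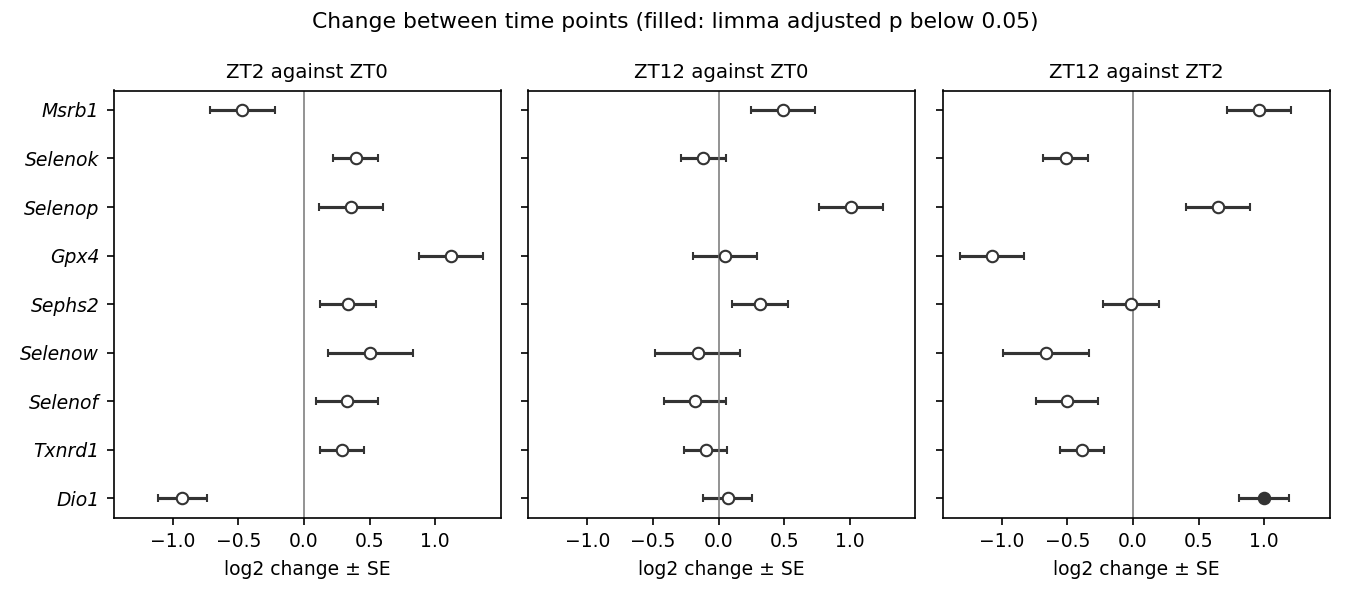
Log2 change on the log2(RPKM + 1) scale with its SE for the 9 selenoprotein genes in the 3 comparisons, later time over earlier time, from limma. The filled point, Dio1 for ZT12 against ZT2 at 1.00, is the only value with an adjusted p under 0.05.

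Over the 3 time points together, limma's moderated F test called 0 of the 9, beside 1.26% of tested genes. Voom called 2, Gpx4 and Selenop, beside 350 of the 8355. At an unadjusted p of 0.05 limma's F test counted 5, beside 18.6%. Dio1 had the smallest F test p of the 9, 0.0017, with a limma adjusted p of 0.081. The mean was highest at ZT2 for 6 genes and at ZT12 for 3, Selenop, Msrb1 and Dio1, with no gene highest at ZT0 (0 of 9). Of all tested genes 33.4% were highest at ZT2, 34.7% at ZT12 and 31.9% at ZT0, and the difference from the 9 was not tested. These courses rank means of 2 libraries, and the spread at ZT2 bears on them. Replicates differed by 1.01-fold to 1.17-fold at ZT0, 1.07-fold to 2.11-fold at ZT2 and 1.00-fold to 1.41-fold at ZT12. Over all tested genes the median SD of log2(RPKM + 1) between replicates was also largest at ZT2, at 0.285, against 0.135 at ZT0 and 0.194 at ZT12. At ZT2 the replicates of 4 of the 9 genes differed by more than 1.5-fold. Replicate 1 was higher for Selenow and Selenop and replicate 2 for Msrb1 and Selenof. The part of this spread in the results was not tested.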

How the data were processed

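Disome footprints were measured in 6 mouse liver libraries. The authors deposited 1 table of RPKM values per library. Tools named in the submitters' processing notes were Bowtie2 2.3.0, STAR, StringTie, edgeR, cutadapt and CASAVA 1.82, and mm10 and GRCm38.p2 as genome builds. What each did, the annotation and the gene filter are not stated there. Whole reads came out of the RPKM steps directly for 8931 of 8941 genes (99.89%, relative tolerance 2e-13) and through coding length for the other 10. The library scale followed the upper quartile of reads. Coding lengths were multiples of 3 for 95.2% of genes. Recovered reads totalled 6346387 to 12322651.

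Limma 3.58.1 in R 4.3.3 was fitted to log2(RPKM + 1) of the 8355 genes whose mean was 1 RPKM or more, with a mean per time point, no covariate, 3 residual degrees of freedom and a variance trend. Benjamini-Hochberg adjustment ran over all of these genes, with a threshold of 0.05. Fold changes on this scale understate the change of low genes; ratios are of mean RPKM. Nothing in the labels says that pools of different libraries came from separate mice, so p-values measure the spread between libraries. The fit was also run on simulated data with known changes at ZT12. These data had the same spread in all libraries, unlike the wider spread at ZT2 here, so performance under that spread was not tested. Deviations of same-numbered libraries correlated at -0.08 to 0.02 across the tested genes, so no pairing by replicate number was seen. Pairing for single genes was not tested.

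Members, lists and tests were chosen with earlier results of these data known. All members in the tables are named, each with the log2 change for its comparison with the smallest p. For Dio1 and Gpx4 a second comparison with the same ZT2 libraries is given too. The reference gene table held Ensembl identifiers for 0 of 49997 genes, so lists of other selenoprotein, selenocysteine machinery and cell type marker genes were not tested, and coding lengths were not checked against proteins.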

Additional observations from a re-analysis of the deposited data

How the results depend on the processing

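Alternatives were the pseudocount, filter, scaling, variance prior, recovered reads, libraries in the fit, replicate block and leaving out each library. The 208 log2 changes summarised next cover each gene's comparison with the smallest p and some others, not all comparisons. Among those left out, some near 0 reversed. Sephs2 for ZT12 against ZT2 was -0.02 in the main fit and 0.14 with every library scaled to the same RPKM total. Of 208 alternative log2 changes, 187 kept their direction and side of the threshold, 11 lost the call (all Dio1, ZT12 against ZT2), 10 gained one and 0 reversed. Of the 9 genes, limma called 0 at ZT2 and 0 at ZT12, each against ZT0, then 1 for ZT12 against ZT2 and 0 in the F test, and further counts keep this order. For ZT12 against ZT2 the count was 0 with a pseudocount of 0.1 or 5, without the filter, without the variance trend and on the 4 libraries compared, and 3 with voom. For ZT12 against ZT0 it was 1 with voom and on the 4 libraries. For the F test it was 1 with every library scaled to the same total and 2 with voom. With single libraries left out, the counts were 0, 0 to 1, 0 to 3 and 0 to 3. With the replicate block the counts of the 9 did not move, but the gene called for ZT12 against ZT2 was Gpx4, not Dio1. The counts over all genes of 2, 79, 172 and 105 became 9, 283, 356 and 350 with voom, 1, 32, 80 and 34 without the variance trend, and 0 to 248, 3 to 283, 5 to 597 and 5 to 612 with single libraries left out. The first 3 became 1, 282 and 39 on the 4 libraries compared. The replicate block gave 51 and 113 for ZT12 against ZT0 and against ZT2, a filter at 5 RPKM gave 124 for ZT12 against ZT0, and a pseudocount of 0.1 gave 6 for ZT2 against ZT0. For these shifts, the cause was not tested. The 9 genes held 0.407% to 0.463% of reads with single libraries left out, and 0.716% of summed RPKM. Ranks moved by less than their SD over libraries in all 54 values with a library left out, while ranking by reads, not per length, moved 7 of the 9, with Selenop then 76th, Msrb1 130th and Selenow 2206th. Depth limits Dio1 most, at 100 reads in ZT2 replicate 1.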
